A study of Arabidopsis thaliana with 22 samples.

Results

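ZMP is a chromatin protein with a PHD domain, a fold that many proteins use to read histone tails, and it associates with RNA polymerase IV (Pol IV) in Arabidopsis thaliana. The regions described here are the 4713 stretches of chromosomes 1 to 5 that carried a ZMP peak in both ZMP-HA chromatin immunoprecipitation (ChIP-seq) libraries, out of 11068 regions merged over the 6 libraries with a tagged protein. A region was counted as ZMP-bound where it held a peak of each ZMP-HA list after removal of peaks touching a peak of either WT library without a transgene from the same experiment. The study itself applied a stricter filter on reproducibility between these 2 libraries and reported a smaller set of ZMP peaks. At each region the question was whether Pol IV, followed through its largest subunit NRPD1, still gave a peak in the zmp-2 mutant. The answer is given apart for chromosome arms and for the gene-poor pericentromeres.

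The series comprised 22 samples of Col-0 inflorescences, 11 of them immunoprecipitates with a peak list and 11 inputs. NRPD1-HA, expressed from the NRPD1 promoter, was immunoprecipitated from zmp-2 plants, which carry a T-DNA insertion in ZMP and produce reduced ZMP transcripts, and from WT plants, with WT plants lacking a transgene as control (set A). ZMP-HA, expressed from the ZMP promoter in a WT background, was profiled in a separate experiment with its own transgene-free WT controls (set B). Each of these groups had 2 replicates, and H3K4me3, which marks the start of transcribed genes, had 1 library of WT plants without a transgene. The HA lines and the zmp-2 line each stand for a single construct and a single allele. Overlaps between ZMP-HA and NRPD1-HA peaks are therefore overlaps across experiments, and ZMP was never profiled in zmp-2.

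In RNA-directed DNA methylation, Pol IV transcribes silenced loci, RDR2 copies the transcript, and DCL3 cuts the double-stranded RNA into siRNAs. AGO4 carries these siRNAs to transcripts of a second polymerase, Pol V, where DRM2 methylates cytosines in the CG, CHG and CHH contexts (H is A, C or T). The pathway is known for short transposon remnants near genes in the arms. Long transposons in pericentromeric heterochromatin are methylated largely by CMT2, CMT3 and MET1, with Pol IV at a subset of sites.

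The 4 sequences below show the chromatin at issue: 120 bases of the TAIR10 plus strand around the midpoint of the ZMP-HA summits, at the best-ranked region that kept Pol IV peaks in zmp-2 and the best-ranked region that lost them, in each compartment. Capitals mark the stretch between the summits of the 2 ZMP-HA replicates, which lay 33 to 46 bases apart.
kept in zmp-2, arm, chr3:1210620-1210739: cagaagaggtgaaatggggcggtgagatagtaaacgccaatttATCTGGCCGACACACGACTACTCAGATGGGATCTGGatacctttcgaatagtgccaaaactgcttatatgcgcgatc
kept in zmp-2, pericentromere, chr3:15682317-15682436: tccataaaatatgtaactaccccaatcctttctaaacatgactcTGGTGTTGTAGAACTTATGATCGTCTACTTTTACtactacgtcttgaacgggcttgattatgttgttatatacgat
lost in zmp-2, arm, chr1:24082508-24082627: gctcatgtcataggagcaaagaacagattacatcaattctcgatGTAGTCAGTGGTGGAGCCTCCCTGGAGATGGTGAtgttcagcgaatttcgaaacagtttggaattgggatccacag
lost in zmp-2, pericentromere, chr4:3318648-3318767: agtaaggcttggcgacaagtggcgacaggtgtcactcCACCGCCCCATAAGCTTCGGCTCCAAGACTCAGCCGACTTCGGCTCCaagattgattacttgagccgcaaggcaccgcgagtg

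The G+C content of these windows was 47.5% and 35.0% at the kept arm and pericentromeric regions, and 45.8% and 58.3% at the lost ones. Counting both strands, the kept windows held 14 and 8 cytosines in CG, 12 and 3 in CHG and 30 and 31 in CHH. The lost windows held 6 and 18 in CG, 12 and 10 in CHG and 36 and 41 in CHH. Each of the 4 windows thus held more CHH than CG and CHG cytosines together. CHH was also the most frequent context in tiles sampled across the genome, so this is not particular to ZMP-bound regions.

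Pericentromeres were taken as the run of 100 kb windows around the gene-poorest part of each chromosome in which protein-coding gene density, averaged over 1 Mb, stayed under 50% of the chromosome median. They covered 17.2 Mb, or 14.4% of the 5 chromosomes, and held 2197 of the 4713 ZMP-bound regions (46.6%), while 2516 lay in the arms. The NRPD1-HA lists held 7012 and 8655 peaks in zmp-2, against 7250 and 7518 peaks in WT. Peaks touching a set A control peak were removed, which took 424 and 416 peaks from the zmp-2 lists and 476 and 421 from the WT lists. A Pol IV peak below is a peak left after this step. The depth behind each list, read from the most frequent background of its peaks, was 26.6 and 38.7 fragments per base in zmp-2 and 25.02 and 41.0 in WT. The lowest fold enrichment called at that background was 1.59 and 1.46 in zmp-2 and 1.58 and 1.43 in WT. A peak that was never called therefore means enrichment under about this level and does not show that Pol IV was absent. A Pol IV peak can also be missing because it touched a control peak and was removed, whatever its height. The labels give no antibody for the set A controls, although the titles call them immunoprecipitates.

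Most ZMP-bound regions of the arms kept Pol IV without ZMP, whereas a minority of pericentromeric ones had a Pol IV peak in both zmp-2 libraries. In the arms 1933 of 2516 regions (76.8%, 75.1 to 78.5) had a peak in both zmp-2 lists, 189 (7.51%) in 1 list and 394 (15.7%, 14.3 to 17.1) in neither. In pericentromeres 724 of 2197 regions (33.0%, 30.99 to 34.96) had a peak in both zmp-2 lists, 385 (17.5%) in 1 list and 1088 (49.5%, 47.4 to 51.6) in neither. These intervals are exact 95% Clopper-Pearson intervals and cover counting error over regions only. As background, 9.33% of all 1 kb tiles of the arms and 16% of those of pericentromeres held a peak of both zmp-2 lists. Tiles with a peak of neither list made up 86.2% of the arms and 68.4% of pericentromeres. Pericentromeres were thus the compartment with more Pol IV peaks per tile and the one where fewer ZMP-bound regions carried them. Of the regions with a peak in a single zmp-2 list, 117 of 189 in the arms and 280 of 385 in pericentromeres had it in replicate 2, the deeper library.

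Absence from zmp-2 was not the same as loss. Of the 394 arm regions without a zmp-2 Pol IV peak, 34 had a WT peak in both lists, 73 in 1 list and 287 in neither. Of the 1088 pericentromeric regions, 194 had a WT peak in both lists, 198 in 1 and 696 in neither. At 119 of these arm regions and 542 of these pericentromeric regions none of the 4 NRPD1-HA lists held a peak even before control peaks were removed. A zmp-2 peak had been removed as touching a control peak at 184 of the arm regions and 130 of the pericentromeric ones. The removal thus accounted for 184 of 394 absences in the arms but for 130 of 1088 in pericentromeres.

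Counted by library, the shares of arm regions with a Pol IV peak were close in mutant and WT. They were 79.7% and 81.5% in zmp-2, against 83.7% and 82.1% in WT, a difference of -2.33 percentage points with SDs of 1.26 and 1.12 (n = 2 each). In pericentromeres the shares were 37.7% and 45.7% in zmp-2, against 57.5% and 55.9% in WT. This difference of -15.0 points was larger than the SD of 5.63 between zmp-2 lists and of 1.13 between WT lists. Both zmp-2 values lay under both WT values in each compartment, and the exact two-sided permutation p over the 4 libraries was 0.333 for each, the smallest that 2 against 2 libraries can give. The background depths were 26.6 and 38.7 fragments per base for these zmp-2 lists and 25.02 and 41.0 for the WT lists, so that the deeper list had the higher pericentromeric share in zmp-2 and the lower one in WT. The part of depth was not tested. Before removal of control peaks the pericentromeric shares were 42.4% and 53.7% in zmp-2, against 67.0% and 66.6% in WT.

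**Figure D1:**
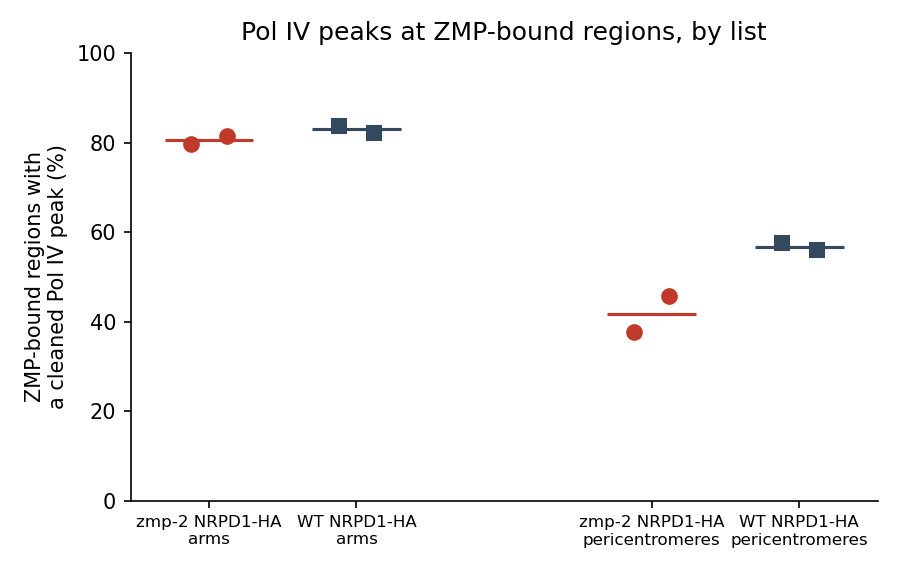
Percentage of ZMP-bound regions with a Pol IV peak after control removal, for each list (points) with the mean of the 2 replicates (line), in arms (2516 regions) and pericentromeres (2197 regions). The arm values lie between 79.7% and 83.7%, whereas the pericentromeric values are 37.7% and 45.7% in zmp-2 and 57.5% and 55.9% in WT.

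The gap between compartments was itself wider in the mutant. The arm share minus the pericentromeric share was 42.0 and 35.8 points in the zmp-2 lists, against 26.2 and 26.2 points in the WT lists (difference 12.7 points, exact permutation p = 0.333, the smallest possible). On every one of the 5 chromosomes both zmp-2 lists had a lower pericentromeric share than both WT lists. In the arms this held for chromosome 2 alone, where the shares were 67.0% and 69.7% in zmp-2 and 76.1% and 72.9% in WT. The share of pericentromeric regions with a peak in both zmp-2 lists ranged from 21.99% on chromosome 4 to 48.0% on chromosome 1, and in the arms from 62.4% on chromosome 2 to 83.5% on chromosome 5. Chromosome 2 had the lowest arm share of the 5 chromosomes in each of the 4 lists.

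Loss was defined against WT: of the ZMP-bound regions with a Pol IV peak in both WT lists, those with no zmp-2 peak of either list, even before control removal. Only 30 of 1998 such arm regions (1.502%, 1.02 to 2.14) were lost, against a background of 2.54% among all WT Pol IV sites of the arms. In pericentromeres 193 of 1062 regions (18.2%, 15.9 to 20.6) were lost, against 15.5% of all WT Pol IV sites there. The share lost among ZMP-bound regions was thus near that of all Pol IV sites in the same compartment. The units differ, since sites are merged WT peaks and several ZMP-bound regions can lie on a single site. Both zmp-2 lists held a peak at 1868 of the 1998 arm regions (93.5%) and at 659 of the 1062 pericentromeric regions (62.1%). Of the 223 lost regions, 86.5% were pericentromeric, and 83 of the 193 pericentromeric losses were on chromosome 3, where 25.8% of WT-occupied regions were lost against 8.88% on chromosome 1. Of the 30 arm losses, 18 were on chromosome 2. With a zmp-2 list left out, the other list alone decides loss, so the share lost cannot fall. Without replicate 2 it was 4.75% in the arms and 34.2% in pericentromeres, and without replicate 1 it was 2.55% and 21.0%.

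Loss deepened toward the inside of the pericentromere. Within regions more than 1.5 Mb inside the edge, 53 of 129 WT-occupied regions (41.1%) were lost. Between 1.5 and 1 Mb inside it, 60 of 253 (23.7%) were lost, and between 1 and 0.5 Mb, 62 of 308 (20.1%). In the outermost 0.5 Mb of pericentromeres 18 of 372 (4.84%) were lost, a value nearer to that of the adjacent arms, where 5 of 318 (1.57%) were lost in the first 0.5 Mb. Farther out, the share lost was at most 3.502% in each bin of the arms. Counted over all WT Pol IV sites, with or without ZMP, the shares lost in the same 4 pericentromeric bins were 51 of 152 (33.6%), 70 of 290 (24.1%), 69 of 436 (15.8%) and 33 of 558 (5.91%). These sites are merged WT peaks, a different unit from ZMP-bound regions, so the 2 sets of shares compare in trend only. Sites touching no ZMP-HA peak had 8 of 27, 11 of 40, 13 of 90 and 8 of 151 lost there. The gradient was thus present at WT Pol IV sites as a whole and is not particular to ZMP-bound regions. The innermost bin was also where Pol IV was sparsest in both genotypes, with peaks at 21.6% and 27.5% of ZMP-bound regions in zmp-2, against 49.4% and 47.5% in WT. The part of this sparser WT occupancy in the loss was not tested.

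**Figure D2:**
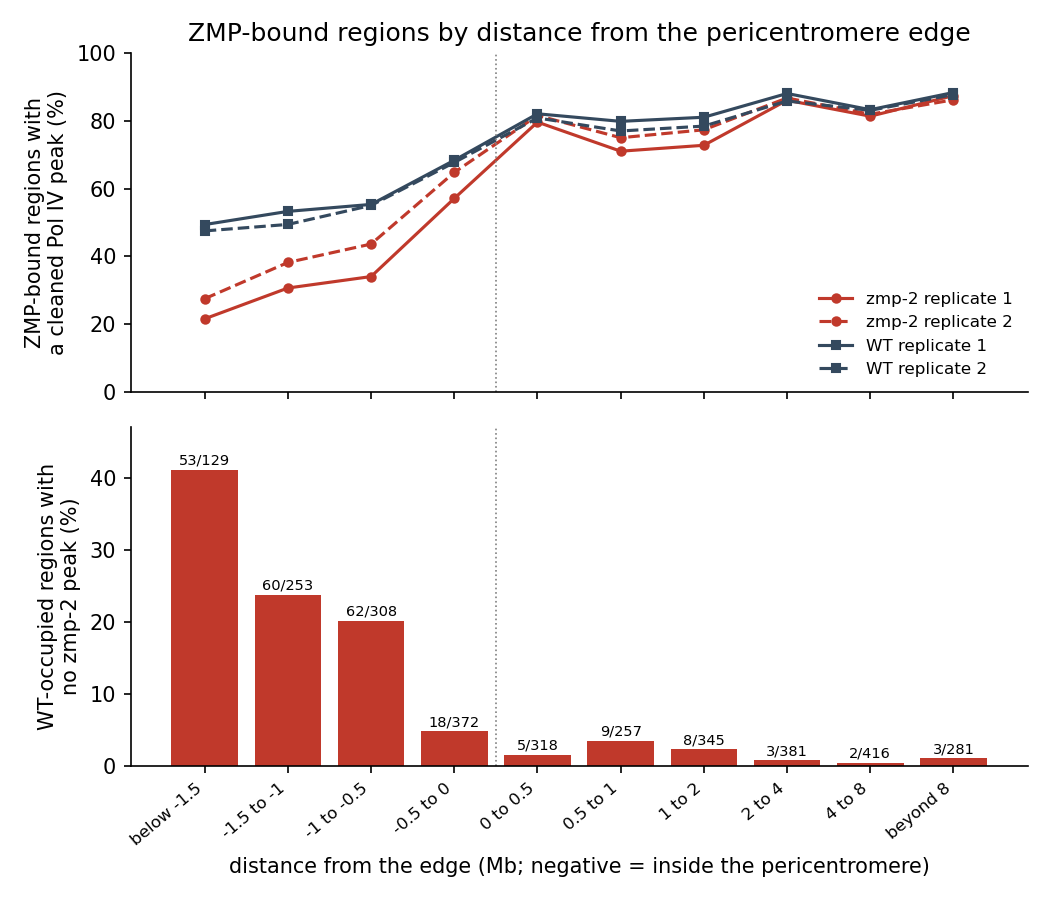
Upper panel, percentage of ZMP-bound regions with a Pol IV peak in each of the 4 NRPD1-HA lists, by distance of the region from the pericentromere edge in Mb (negative values lie inside, dotted line marks the edge). Lower panel, percentage of regions with a peak in both WT lists that had no zmp-2 peak, with lost over WT-occupied regions printed on each bar. The share lost is 41.1% in the innermost bin, 4.84% in the outermost pericentromeric bin and at most 3.502% in the arms.

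Regions that were lost were weak Pol IV sites in WT. The median WT fold enrichment of lost arm regions was 2.69 and 2.10 in replicates 1 and 2, against 6.80 and 4.71 at arm regions kept in both zmp-2 lists. In pericentromeres the medians were 2.58 and 2.24 at lost regions and 4.43 and 3.4999 at kept ones. The lower quartile of WT values at lost pericentromeric regions was 2.11 and 1.79, close to the lowest values callable in the zmp-2 lists. The highest WT values among lost regions were 41.4 and 53.6 in the arms and 37.4 and 18.3 in pericentromeres, so that a few losses were of strong sites.

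To ask whether ZMP marks the sites that depend on it, WT Pol IV sites with a ZMP-bound region were set beside WT Pol IV sites touching no ZMP-HA peak, within each compartment. In the arms 26 of 1730 ZMP-bound sites (1.503%, 0.984 to 2.19) were lost and 57 of 1558 sites without ZMP (3.66%, 2.78 to 4.71). In pericentromeres 140 of 874 ZMP-bound sites (16.0%, 13.6 to 18.6) were lost and 40 of 308 sites without ZMP (13.0%, 9.44 to 17.3). The compartment thus separated these shares by more than the presence of a ZMP peak did. Taking the peaks of each WT list alone, the pericentromeric share without any zmp-2 peak was 28.3% of ZMP-bound peaks and 20.3% of peaks without ZMP in replicate 1. In replicate 2 it was 22.6% of ZMP-bound peaks and 28.2% of peaks without ZMP. The direction of the pericentromeric difference therefore depended on the WT library, whereas in the arms both libraries gave a lower share at ZMP-bound peaks, 3.67% against 6.67% and 2.67% against 6.95%.

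Loss was more frequent at weaker WT sites, both with and without ZMP. Loss means that no zmp-2 peak passed the calling limit, so an ordering by WT strength is partly built into its definition. WT sites were divided into tertiles by the lower of their 2 WT fold enrichments, at 2.69 and 4.54. In the weakest tertile of pericentromeric sites, 120 of 483 ZMP-bound sites (24.8%, 21.1 to 28.9) and 33 of 156 sites without ZMP (21.2%, 15.0 to 28.4) were lost. In the strongest tertile these counts were 2 of 172 (1.16%) and 1 of 55 (1.82%). In the weakest tertile of arm sites, 20 of 343 ZMP-bound sites (5.83%, 3.598 to 8.86) and 31 of 441 sites without ZMP (7.03%, 4.83 to 9.83) were lost. The weakest tertile was not of equal strength in both compartments, since its ZMP-bound sites had median WT enrichments of 2.61 and 2.02 in pericentromeres and 2.99 and 2.21 in the arms. The intervals of ZMP-bound sites and sites without ZMP overlapped in each tertile of both compartments, except the middle tertile of the arms, where 3 of 536 ZMP-bound sites (0.560%, 0.116 to 1.63) and 20 of 681 sites without ZMP (2.94%, 1.80 to 4.50) were lost.

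**Figure D3:**
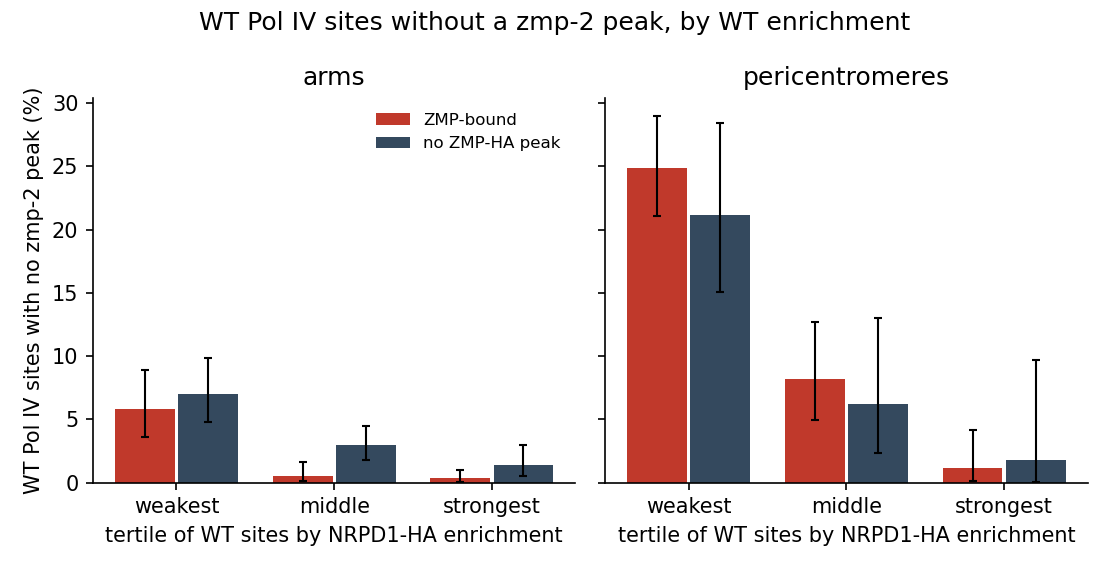
Percentage of WT Pol IV sites with no zmp-2 peak, for ZMP-bound sites and sites touching no ZMP-HA peak, by tertile of WT NRPD1-HA fold enrichment, in arms and pericentromeres. Bars are shares and lines exact 95% intervals over sites. In the weakest tertile the pericentromeric shares are 24.8% and 21.2% and the arm shares 5.83% and 7.03%.

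How firmly ZMP bound also went with whether Pol IV was there, in both genotypes. Regions were ranked by the worse of their ranks in the 2 ZMP-HA lists and divided into quintiles. In the strongest quintile 90.7% of the 807 arm regions and 80.7% of the 135 pericentromeric regions had a peak in both zmp-2 lists. In the weakest quintile these shares were 50.7% of 304 and 18.5% of 639 regions. In the middle quintile, arm and pericentromeric regions had median ZMP-HA enrichments of 2.41 and 2.38 in replicate 1 and 2.17 in both compartments in replicate 2. In that quintile 73.2% of arm regions and 35.5% of pericentromeric regions were kept. The lists held peaks at 42.2% and 49.8% of pericentromeric regions in zmp-2, against 63.3% and 60.4% in WT, and at 75.9% and 79.4% of arm regions in zmp-2, against 82.5% and 80.8% in WT. In the strongest pericentromeric quintile, by contrast, zmp-2 lists had peaks at 85.9% and 83.0% of regions and WT lists at 87.4% and 83.7%. Only 3 of 110 WT-occupied regions were lost there, against 50 of 212 in the weakest pericentromeric quintile.

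**Figure D4:**
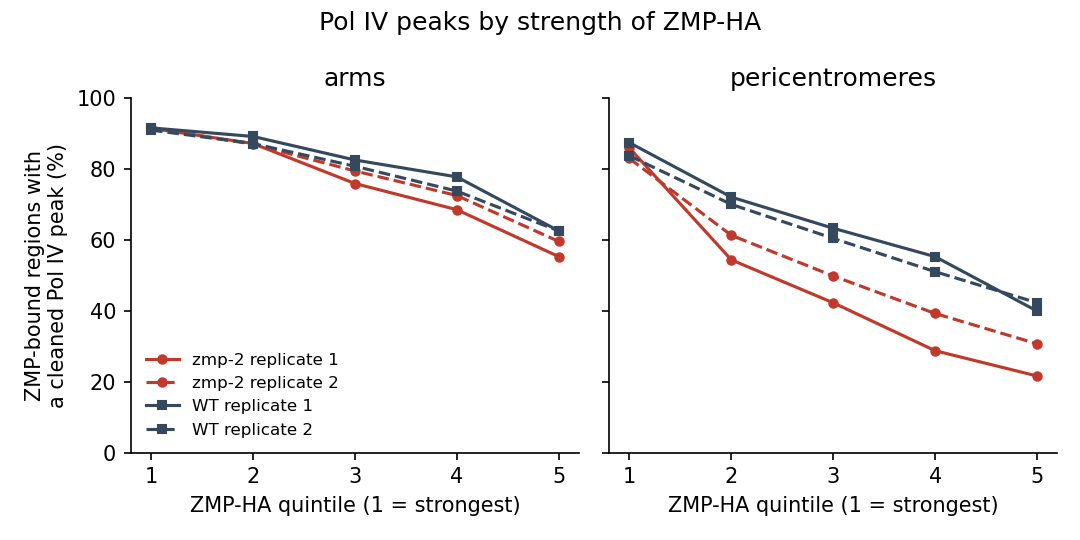
Percentage of ZMP-bound regions with a Pol IV peak in each of the 4 NRPD1-HA lists, by quintile of ZMP-HA fold enrichment (1 is the strongest), in arms and pericentromeres. In the strongest quintile the 4 lists lie together, between 83.0% and 87.4% in pericentromeres, and in pericentromeric quintiles 2 to 5 both zmp-2 lists lie under both WT lists.

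Regions that kept Pol IV lay nearer to genes. In the arms 42.0% of kept regions lay within 500 bases of a protein-coding 5′ end, beside 22.6% of those with no zmp-2 peak and 4 of the 30 lost ones. In pericentromeres the shares were 15.5% of kept, 4.87% of absent and 8.81% of lost regions. An annotated pseudogene, a class that in this annotation holds many transposon-derived loci, overlapped 35.6% of kept arm regions, 63.2% of absent ones and 22 of 30 lost ones. In pericentromeres the shares were 64.9%, 78.7% and 80.3%. An H3K4me3 peak lay on 13.5% of kept pericentromeric regions, 4.50% of absent and 2.07% of lost ones, whereas in the arms these shares were 9.78%, 10.4% and 1 of 30. A further 33.6% of kept arm regions had an H3K4me3 peak within 1 kb, beside 14.0% of absent ones.

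The classes also differed in base composition and spacing, as a description without a test. The median G+C content of the 300 bases around the ZMP-HA summits was 41.3% at kept arm regions, 45.3% at absent and 46.0% at lost ones, and the median of arm tiles sampled across the genome was 36.3%. In pericentromeres it was 45.3%, 46.0% and 47.3%, with 37.3% in tiles. Kept arm regions stood alone, with a median of 7096 bases to the next ZMP-bound region beside 1309.5 bases for absent ones. In pericentromeres these distances were 1289.5 and 1416 bases. Kept regions were wider than absent ones in pericentromeres, with medians of 1454.5 and 1099 bases, but narrower in the arms, with 958 and 1050.5 bases. Wide pericentromeric regions carried Pol IV most often: of the 124 regions of at least 4000 bases, 64.5% and 66.1% had a peak in the zmp-2 lists, against 78.2% and 77.4% in the WT lists. A wider region has more room to touch a peak.

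Where Pol IV stayed in the arms, its summit lay close to the WT summit. Over 1774 arm regions under 4000 bases wide with a peak in all 4 lists, the NRPD1-HA summit lay a median of 115.5 and 217 bases from the ZMP-HA summit in zmp-2, against 97 and 172 bases in WT. The 2 ZMP-HA replicates themselves lay 74 bases apart. The zmp-2 and WT summits of the same replicate number lay 59 and 54 bases apart, no farther than the 2 replicates within zmp-2 (68 bases) or within WT (61.5 bases). In pericentromeres, over 598 regions, these medians were 212 and 435 bases in zmp-2 and 248.5 and 580.5 bases in WT, so that the mutant values lay between or below the WT ones. The peaks themselves covered less of the pericentromeric regions in the mutant: 64.1% and 72.5% of the summed length of 659 regions in zmp-2, against 84.5% and 77.8% in WT. In the arms they covered 90.8% and 93.3% in zmp-2 and 95.8% and 92.0% in WT.

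A kept peak was not always a peak of the same height. Fold enrichment over background was compared at the 4164 sites that each of the 4 NRPD1-HA lists held, on the log2 scale with each list centred on its median, using limma with Benjamini-Hochberg adjustment over all 4164. Of the 2157 ZMP-bound sites, 106 were lower and 4 higher in zmp-2 at an adjusted p under 0.05, against backgrounds of 3.48% lower and 0.600% higher among all sites tested. The lower calls were 73 of 1606 ZMP-bound arm sites (4.55%) and 33 of 551 pericentromeric ones (5.99%), and the 4 higher calls were all in the arms. Sites touching no ZMP-HA peak had 20 lower and 17 higher calls of 1268 in the arms and 1 lower and 2 higher of 171 in pericentromeres. The ZMP-bound sites thus had more lower and fewer higher calls than the background, by shares that were small in both directions. The counts depended on the fit. With the quantile scaling 49 ZMP-bound sites were lower and 7 higher, beside 1.85% lower and 0.67% higher among all sites. Without zmp-2 replicate 1 they were 33 and 1 (1.10% and 0.096% of all sites), and without WT replicate 1 they were 184 and 22 (6.75% and 1.37% of all sites). With the replicate number as a block 469 ZMP-bound sites (21.7%) were lower and 89 (4.13%) higher, beside 16.3% lower and 10.4% higher among all sites.

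The whole distribution of ZMP-bound sites also sat lower. The median log2 difference, zmp-2 minus WT, was -0.12 at ZMP-bound arm sites and -0.24 at ZMP-bound pericentromeric sites, beside 0.21 and 0.07 at arm and pericentromeric sites without a ZMP-HA peak. The centred median of ZMP-bound arm sites was 0.28 and 0.08 in zmp-2 replicates 1 and 2, against 0.46 and 0.18 in WT, so that the lists overlapped. For ZMP-bound pericentromeric sites it was -0.50 and -0.68 in zmp-2, against -0.19 and -0.34 in WT, and the lists did not overlap. Sites without ZMP had -0.07 and 0.16 in zmp-2 and -0.31 and -0.02 in WT in the arms. The arm shift was smaller than the difference between replicates, and leaving out zmp-2 replicate 2 gave 0.0036, and leaving out WT replicate 1 gave 0.013. The pericentromeric shift stayed below 0, between -0.42 and -0.12, whichever NRPD1-HA library was left out. Centring fixes the median of all sites near 0, so these are relative positions and not absolute amounts of Pol IV.

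**Figure D5:**
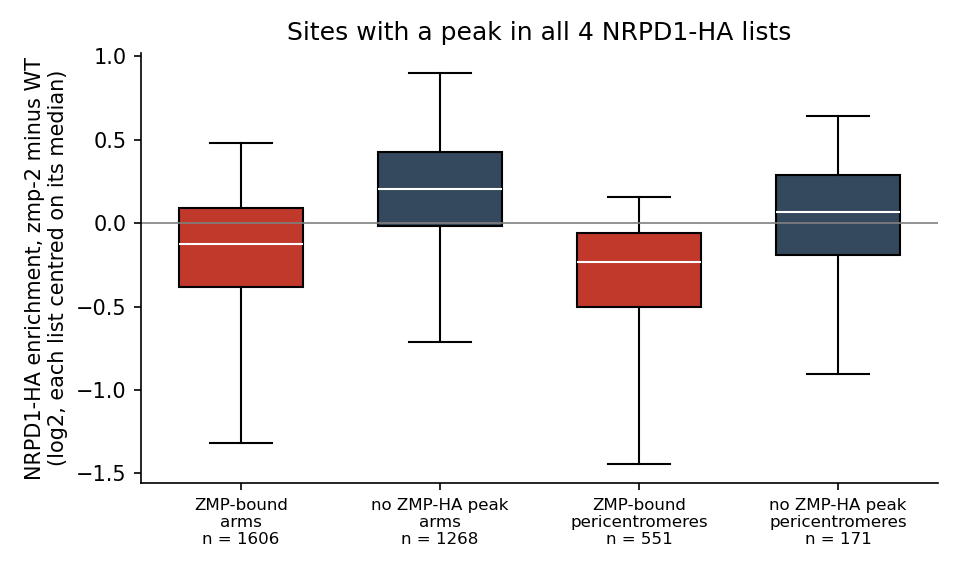
Difference in NRPD1-HA fold enrichment (log2, zmp-2 minus WT, each list centred on its median) at sites held by each of the 4 NRPD1-HA lists, for ZMP-bound sites and sites touching no ZMP-HA peak, in arms and pericentromeres. Boxes show quartiles and median (white line), whiskers the 5th to 95th percentile of sites. The medians are -0.12 and 0.21 in the arms and -0.24 and 0.07 in pericentromeres.

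The lower calls were strong Pol IV sites in WT. The 73 arm sites had median fold enrichments of 5.11 and 7.38 in zmp-2, against 22.6 and 21.6 in WT, and the 33 pericentromeric sites 4.02 and 5.74 in zmp-2, against 17.6 and 17.2 in WT. The fitted decreases ran from -2.86 to -1.15 on the log2 scale. At each of the 106 sites both zmp-2 values lay below both WT values, which follows largely from their selection on these values. Called or not, this held at 363 of 1606 ZMP-bound arm sites and 187 of 551 pericentromeric ones. Only sites with a peak in all 4 lists were tested, so a weak WT site with a decrease of this size would have left the test.

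The following sites were chosen after their values were seen, as the largest changes. A pericentromeric site at chr3:14456322-14463189, over the pseudogene AT3G42305 and the protein-coding gene AT3G42310, had fold enrichments of 2.21 and 4.84 in zmp-2, against 26.3 and 21.5 in WT (log2 difference -2.86 ± 0.31 SE, limma adjusted p = 0.0114). The site at chr1:7025706-7027866, inside the protein-coding gene AT1G20290, had 4.88 and 7.48 in zmp-2, against 43.5 and 41.2 in WT (-2.81 ± 0.25, limma adjusted p = 0.0114). A site at chr3:18810860-18814118 overlapped 170 bases of DWF4, which encodes a cytochrome P450 of brassinosteroid synthesis, and had 3.95 and 7.38 in zmp-2, against 30.7 and 41.3 in WT. A zmp-2 peak remained at each of these by design, since only sites with a peak in all 4 lists were tested.

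The 4 higher sites had WT fold enrichments between 2.57 and 6.11, under the WT medians of the lower calls in the arms (22.6 and 21.6). At chr1:4061205-4062109, over AT1G12020, fold enrichment was 11.8 and 15.8 in zmp-2, against 4.22 and 3.36 in WT (1.86 ± 0.24, limma adjusted p = 0.0129). At chr5:15840763-15841699, 85 bases from the 5′ end of VIM3, which encodes a reader of methylated CG sites, it was 6.45 and 9.98 in zmp-2, against 2.61 and 2.57 in WT. The site at chr1:12650927-12653463 covered the 5′ end of EMB2756 and had 10.7 and 13.9 in zmp-2, against 6.11 and 3.40 in WT. At chr1:23067891-23068633, over the noncoding gene AT1G08517, the values were 7.61 and 9.30 in zmp-2 and 3.23 and 2.71 in WT.

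The kept regions with the highest ZMP-HA enrichment carried Pol IV at very high levels. The best-ranked arm region, chr3:1209452-1211583, overlapped coding exons of AT3G04490, annotated as an exportin-4 protein, with its summit outside the gene. Its NRPD1-HA fold enrichment was 126 and 229.2 in zmp-2, against 248 and 229.4 in WT, with ZMP-HA at 19.0 and 18.3. The next arm region, chr1:28964114-28966760, had its summit in an exon of the pseudogene AT1G77095 beside the peroxidase gene AT1G77100, with 94.2 and 182 in zmp-2, against 194 and 186 in WT. The next, chr4:17636584-17638414, was intergenic, 1888 bases from the 5′ end of AT4G37530, with 51.9 and 93.2 in zmp-2, against 174 and 151 in WT. In all 3, zmp-2 replicate 1 was the lowest of the 4 values, which are not centred on the list medians. At the chromosome 3 region zmp-2 replicate 2 (229.2) and WT replicate 2 (229.4) were nearly equal. At the chromosome 1 and 4 regions both zmp-2 values lay below both WT values. Over all ZMP-bound arm sites with a peak in all 4 lists, this held at 363 of 1606.

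The kept pericentromeric regions with the highest ZMP-HA enrichment were as strong. The region chr3:15681012-15683363, with its summit in an exon of the transcribed pseudogene AT3G43832, had 118 and 226 in zmp-2, against 254 and 223 in WT. The region chr4:4103552-4108911, over the pseudogenes AT4G07031 and AT4G07310, had 112 and 200 in zmp-2, against 232 and 234 in WT. The region chr2:4104805-4109301, over AT2G10556 and AT2G10557, had 101 and 185 in zmp-2, against 165 and 135 in WT. In these regions too replicate 1 of zmp-2 was lowest, and in the regions of chromosomes 3 and 2 replicate 2 exceeded 1 WT value or both.

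A fold enrichment above 50 in all 4 NRPD1-HA lists, a limit set after seeing the values, was reached at 35 arm and 10 pericentromeric ZMP-bound regions. Over the 35 arm regions the median was 73.8 and 151 in zmp-2, against 175 and 189 in WT. Over the 10 pericentromeric ones it was 95.2 and 160 in zmp-2, against 174 and 193 in WT. Their median ZMP-HA enrichment was 10.5 and 12.04 in the arms and 11.5 and 13.0 in pericentromeres, where all ZMP-bound regions had medians of 2.74 and 2.44 in the arms and 2.35 and 2.12 in pericentromeres. A 5′ end of a protein-coding gene lay within 500 bases of 19 of the 35 arm regions and 2 of the 10 pericentromeric ones.

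Among the lost regions of the arms, the one with the best ZMP-HA rank was chr1:24082247-24082895. Its summit lay in a coding exon of ILA (AT1G64790), which encodes the protein ILITYHIA, and the region covered the 5′ end of AT1G64795. WT NRPD1-HA enrichment was 13.9 and 5.76, ZMP-HA was 5.64 and 3.75, and neither zmp-2 list held a peak. The region chr3:8138534-8138935 lay over an exon of the pseudogene AT3G22955, 250 bases from the 5′ end of PKP-ALPHA, a plastid pyruvate kinase subunit, with WT values of 5.65 and 5.12. The region chr1:28515226-28516138 covered the 5′ end of AT1G75945, with its summit in an intron, and carried an H3K4me3 peak. Its WT values were 4.65 and 3.21, well under those of the kept regions above.

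In pericentromeres the best-ranked lost regions were neighbours. The region chr4:3318026-3319052 had its summit in an intron of the protein-coding gene AT4G06526 and WT values of 2.92 and 7.16. The adjacent region chr4:3319574-3325683 covered the 5′ end of AT4G06526 and exons of the pseudogene AT4G06527, with WT values of 10.04 and 7.16. The equal value in replicate 2 is that of a single WT peak spanning both regions. The next, chr2:3936722-3937320, lay over the noncoding genes AT2G05465 and AT2G05485, with WT values of 3.11 and 2.19. ZMP-HA enrichment at these 3 regions was 3.07 and 3.06, 3.32 and 2.64, and 3.37 and 2.55.

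Pol IV peaks present in both zmp-2 lists and neither WT list were few at ZMP-bound regions, 13 in the arms and 13 in pericentromeres. At 8 of the arm and 3 of the pericentromeric ones no WT list held a peak even before control removal, so the rest rested on the removal of a WT peak. The arm region chr4:14546203-14546773, over the noncoding gene AT4G08205, had 6.70 and 9.62 in zmp-2. The region chr4:660922-661623 lay in an exon of the pseudogene SADHU5-1, named for a family of retroposons, and had 4.17 and 4.94 in zmp-2. The region chr2:6275147-6276276 lay over coding exons of SUC8, a sucrose-proton symporter gene, with 3.30 and 5.29 in zmp-2 and the weak ZMP-HA enrichments of 1.47 and 1.45. The 3 pericentromeric ones without any WT peak had zmp-2 values of at most 2.35.

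Gained sites were rarer among ZMP-bound zmp-2 Pol IV sites than among those touching no ZMP-HA peak. Counted over zmp-2 Pol IV sites, 5 of 1692 ZMP-bound arm sites (0.296%, 0.0960 to 0.688) had no WT peak, beside 358 of 2034 arm sites touching no ZMP-HA peak (17.6%, 16.0 to 19.3) and 9% of all zmp-2 sites in the arms. In pericentromeres the shares were 3 of 653 (0.459%), 27 of 289 (9.34%) and 2.91% of all sites. Within each compartment the intervals of ZMP-bound sites and sites touching no ZMP-HA peak did not meet, as far as counting error over sites goes. The 2 sets were not matched for width or strength. Among WT Pol IV sites of the arms, the median width was 1504.5 bases at ZMP-bound sites and 726.5 at sites touching no ZMP-HA peak. A wider site has more room to touch a WT peak, and the part of width and strength was not tested. A missing ZMP-HA peak does not show that ZMP was absent. The study reports low ZMP-HA signal, not called as a peak at some loci, where siRNAs rose in zmp-2.

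Of 24 genes of RNA-directed DNA methylation and its targets, 22 lay in the arms and 1 of these (4.55%) had a ZMP-bound region within 1 kb, beside 8.34% of all protein-coding genes of the arms, so that a count this small is near the background. The gene was DMS3, which encodes a structural partner in the complex that helps Pol V transcribe. That region, chr3:18254594-18255506, lay 454 bases downstream of DMS3, with NRPD1-HA at 8.09 and 5.14 in zmp-2, against 11.5 and 5.24 in WT. NRPD1 and ZMP had none. Neither did the loci AT3G07775 and AT5G43755, which had Pol IV peaks of 14.5 and 17.5 and of 7.03 and 10.3 in zmp-2 and no peak in WT. The study displays both loci among selected Pol IV sites that differ between zmp-2 and WT in these same libraries. Their gain is therefore not an independent finding.

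Genes annotated as disease resistance proteins, most of them immune receptors found in clusters, had a ZMP-bound region within 1 kb at 30 of 196 loci in the arms (15.3%), beside 8.34% of all protein-coding genes there. Of their 31 arm regions 27 were kept, and 0 of 25 occupied in WT were lost. Of the 1584 arm regions within 1 kb of any protein-coding gene 85.0% were kept, and 12 of 1353 occupied in WT were lost. In pericentromeres 56.4% of the 344 regions near a protein-coding gene were kept, and 27 of 233 occupied in WT were lost, beside 33.0% kept among all ZMP-bound regions of that compartment.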

How the data were processed

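Peak lists of 11 immunoprecipitates were used, with groups and replicate numbers from the labels; inputs entered only through the authors' peak calling. Per the study's methods and processing notes, the authors trimmed reads with Trim Galore 0.4.3, aligned them to TAIR10 with Bowtie2 2.2.9 and called peaks per library with MACS2 2.2.6, with input as control. The deposited lists give fold enrichment at the summit (a linear ratio), a −log10 p-value and a −log10 q-value for each peak, at q-values of 0.05 or less. They hold calls, not read counts. Depth was recovered by solving fold enrichment and p-value for pileup and background, which rebuilt the p-value within 1% for 100% of the peaks solved.

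Peaks sharing at least 1 base were matched and merged. Coordinates are 1-based TAIR10. Genes and sequence came from RefSeq TAIR10.1, whose nuclear chromosomes carry the same coordinates. Organelle peaks were left out. Shares have exact Clopper-Pearson intervals (SciPy 1.17.1), libraries were compared by an exact permutation test, and log2 fold enrichment by limma 3.58.1 in R 4.3.3. The fit was tried on simulated data with independent errors between libraries. Deviations of same-numbered libraries correlated in the real data, so that trial does not cover this feature. Same-numbered replicates were not treated as pairs. Because limma used sites with a peak in all 4 lists, lost sites are outside it.

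Named regions were the 3 with the best worse rank of ZMP-HA fold enrichment among kept and among lost regions of each compartment, every region with Pol IV in both zmp-2 lists and neither WT list (counted, with examples), and a fixed gene list; sites chosen otherwise are so described. Members and lists were chosen with earlier results of these data known. Results were recomputed at a q-value of 0.01, at a reciprocal overlap of 50%, and with other control removal, equal list lengths, only regions above the median of both ZMP-HA lists, other windows, other scalings, a replicate block and leaving out each library.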

Additional observations from a re-analysis of the deposited data

How the results depend on the processing

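Peak lists hold calls above a threshold, from 2 libraries a group, so a missing peak may be weak signal, and no exact test of libraries can reach p = 0.05. Which regions count as ZMP-bound, and the gap between compartments, decided the level of each share more than its direction: the arm share kept exceeded the pericentromeric share, and the zmp-2 share lay under the WT share in both compartments, in every alternative run. Of the 12 regions named by rank, the kept ones stayed kept in all 84 alternatives that gave a value, and the lost ones stayed lost in 82 of 83. The exception was chr4:3318026-3319052, which had 1 WT peak with reciprocal overlap of 50%. Most of these alternatives are no check of the classes. By definition, leaving out an NRPD1-HA library or moving the gene-density limit could not change them. Regions named for a high ZMP-HA rank also pass the filter on the ZMP-HA medians by their selection. The smallest pericentromeric difference between zmp-2 and WT was -3.70 points, with reciprocal overlap of 50%, and the smallest arm difference -0.28 points, among regions above the median of both ZMP-HA lists.

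The kept share in arms and pericentromeres was 45.9% and 11.1% with reciprocal overlap of 50%, 85.6% and 39.7% with no removal of control peaks, 73.1% and 24.96% with lists of equal length, 88.0% and 60.4% above the ZMP-HA medians, 71.4% and 22.3% with gene density under 25%, and 83.1% and 41.4% under 75%. The absent share was 34.9% and 69.3%, 8.39% and 42.7%, 18.1% and 59.0%, 8.37% and 25.3%, 18.8% and 60.01%, and 12.2% and 42.2% under the same settings in the same order. Removal against all 4 control lists moved the arm shares alone beyond 1 SD, to 81.9% kept and 10.7% absent. The lost share moved to 3.38% in the arms with reciprocal overlap of 50% and to 27.6% in pericentromeres with gene density under 25%. Leaving out each replicate gave 69.4% to 81.5% kept, 15.7% to 21.5% absent and 1.73% to 4.75% lost in the arms, and 27.1% to 45.7% kept, 49.5% to 62.3% absent and 19.4% to 34.2% lost in pericentromeres. The low and high ends of the lost share are without ZMP-HA replicate 2 and without zmp-2 NRPD1-HA replicate 2. With a zmp-2 list left out, the other list alone decided presence, so the kept, absent and lost shares could not fall.

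The difference in lost share between ZMP-bound WT sites and those without ZMP was recomputed under alternatives chosen after seeing the data. In the arms it was -2.16 points, -5.44 with reciprocal overlap, -3.96 with lists of equal length, -3.18 above the ZMP-HA medians, and -11.3 to -1.35 without single replicates. In pericentromeres it was 3.03 points, and it turned to -3.26 above the ZMP-HA medians, to -5.63 without WT replicate 1 and to -5.76 without zmp-2 replicate 2, within a range of -5.76 to 8.03 without single replicates. The pericentromeric difference therefore has no settled direction. The cause was not tested.

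Counts of ZMP-bound sites with lower enrichment in zmp-2, 106 in the report, were 49 with quantile normalization and 33 to 184 without single replicates. The 4 higher calls became 7 with quantile normalization, 7 with no centring, and 1 to 22 without single replicates. With the replicate block the counts were 469 lower and 89 higher (21.7% and 4.13%), beside 16.3% and 10.4% of all sites; deviations of same-numbered libraries correlated at 0.69 over 4164 sites, but the labels tie a number to no shared batch and there are 2 pairs, so this is only a hint from the data. The arm median log2 difference reversed to 0.013 without WT replicate 1 and to 0.0036 without zmp-2 replicate 2, within a range of -0.29 to 0.013 without single replicates.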
